A study of Mus musculus with 12 samples.

Results

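The semaphorin, plexin, neuropilin, Eph and ephrin genes were followed through early heart formation in the mouse. Gene intervals were taken by symbol from the deposited count table, which gave 53 genes of 48709 intervals. They were 20 semaphorins, 9 plexins, 2 neuropilins, 9 EphA and 5 EphB receptors, 5 ephrin-A and 3 ephrin-B genes. Total RNA had been sequenced from dissected cardiogenic regions, from which the heart develops. The stages were embryonic day 8 (E8), day 8.5 (E8.5), day 9.5 (E9.5) and day 14 (E14), with 3 libraries each. The labels name no strain, genotype or treatment, and do not say how many embryos went into a library or whether libraries came from separate litters. The p-values therefore measure the spread between these libraries, which may be technical. Levels are given in CPM, the counts of a gene scaled to a common library size, and differences as log2 fold changes of the later stage over the earlier with their standard error (SE). A gene was called when the Benjamini-Hochberg adjusted p of edgeR's quasi-likelihood test, taken over all 28846 genes tested, was under 0.05. Of the 53 genes 52 were tested. Sema4f had 2 to 11 counts per library and fell below the filter on low counts.

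Semaphorins are secreted or membrane-bound ligands. They signal through plexin receptors, and the secreted class 3 proteins mostly need a neuropilin as the part of the receptor that binds them. Ephrins are tied to the cell membrane, the A class by a lipid anchor and the B class by a transmembrane segment, and signal to Eph receptor tyrosine kinases on a touching cell, often in both directions. Both systems were first studied as steering cues for axons. In the heart they are known for guiding neural crest cells into the outflow tract, for sorting arteries from veins, and for the endocardial cushions from which the valves form.

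E8 libraries held 101231014 to 122785175 counts, E8.5 libraries 101202593 to 111404849, E9.5 libraries 73056001 to 90620692 and E14 libraries 56574386 to 97187372. The guidance genes took 0.166% to 0.282% of them. Markers of cardiomyocytes were high in all 12 libraries, with a sum over 8 genes of 13535 to 22841 CPM. E8.5 replicate 3 stood apart. It lay at -83.3 on the first principal component, beside -60.6 and -63.4 in the other E8.5 libraries and -80.5 to -76.8 at E8. Its 8 visceral endoderm and liver markers summed to 1657 CPM, beside 150 and 55.3. Calls that are lost without E8.5 replicate 3 are named with both values. E9.5 replicate 1 also lay off from its stage, at -17.3 on the first component, beside -1.78 and 4.05. In whole tissue, fewer cells of a type and less RNA per cell cannot be told apart. The enclosing interval had at least the counts of an enclosed gene in every library in 99.4% of 1713 pairs on opposite strands, so counts may hold intronic reads and reads of an overlapping gene. This touches Epha1, Efna4, Sema5b, Efna3 and Plxna1, whose overlapping neighbours on the other strand had 11.2, 2.36, 0.663, 0.541 and 0.435 times their own counts.

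Over the 4 stages together, 44 of the 52 tested guidance genes differed, beside 72.3% of all genes tested. The mean level peaked at E8 for 12 of them, beside 19.7% of all genes, at E8.5 for 15, beside 23.9%, and at E14 for 22, beside 37.5%. It peaked at E9.5 for Epha6, Epha8 and Sema3e alone, beside 18.9% of all genes. The genes with no call over the 4 stages were Sema3e, Sema4c, Sema6b, Sema6c, Plxnd1, Epha1, Efnb1 and Efnb2.

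**Figure D1:**
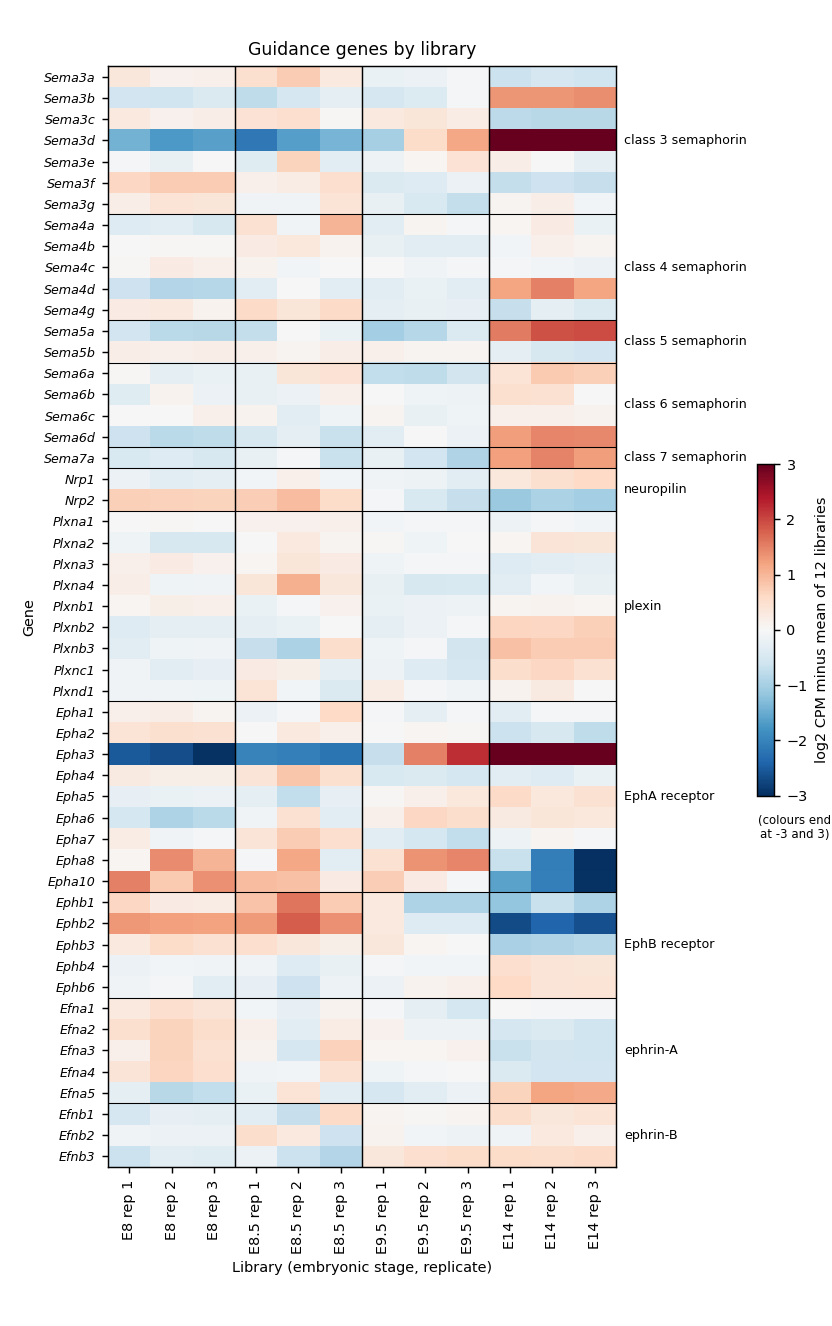
Each row is 1 of the 52 tested guidance genes and each column 1 of the 12 libraries, and colour gives log2 CPM minus the gene's mean over the libraries. Epha3 and Sema3d are blue in the E8 and E8.5 libraries and red in those of E14, while Ephb2, Nrp2, Epha8 and Epha10 are blue at E14.

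Between E8.5 and E8 no guidance gene was called by edgeR, beside 0.891% of all genes higher and 0.291% lower. At an unadjusted p under 0.05 there were 22, of which 17 had the higher level at E8.5. The share of all genes at that cut is not given here, so the 22 cannot be read as particular to guidance genes. DESeq2 called 8 higher and 4 lower, beside 9.61% and 8% of all genes. Among genes with a mean of at least 1 CPM edgeR called 4 higher and 2 lower, beside 5.19% and 3.9%, and with small structural RNAs and globins left out 3 and 2, beside 2.66% and 1.82%. Without E8.5 replicate 3 edgeR called 13 higher and 7 lower, beside 14.2% and 15.7% of all genes. The 7 lower ones were Efna1, Efna2, Efna4, Epha2, Plxnb1, Sema3f and Sema3g. Epha7, an EphA receptor, had 180, 231 and 194 CPM at E8.5, against 159, 128 and 133 CPM at E8. All its E8.5 libraries lay above the E8 ones, with a log2 fold change of 0.53 ± 0.13 (SE, edgeR adjusted p = 0.0516), and 0.19 (0.221) with an adjustment for gene length described next. Efna1, an ephrin-A ligand whose loss thickens the heart valves in mice, had 13.3, 11.9 and 15.3 CPM at E8.5, against 17.4, 20.1 and 18.5 CPM at E8. Its E8.5 libraries all lay below those of E8 (-0.47 ± 0.12, edgeR adjusted p = 0.0562), with -0.39 (0.0889) under that adjustment.

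The log2 differences between E8.5 and E8 went with the length of the gene. Over the 52 guidance genes they correlated with log gene interval length at a Pearson coefficient (r) of 0.62 and a Spearman coefficient of 0.61, a description over genes that share the same 6 libraries. The 22 genes of at least 50 kb had a median of 0.34 and the 30 shorter ones a median of -0.09. When each library was adjusted for a smooth trend on interval length, r was -0.02, the Spearman coefficient 0.04 and the medians -0.06 and -0.03. The adjustment is built to remove such a trend, so its loss is no separate finding. Again no guidance gene was called, beside 0.246% of all genes higher and 0.187% lower. At an unadjusted p under 0.05 there were 15, of which 4 had the higher level at E8.5. For this count too the share of all genes is not given. Ephb1, which spans 433 kb, had 0.75 ± 0.33 without and 0.22 with the adjustment, and Plxna4, which spans 444 kb, had 0.64 ± 0.18 without and 0.10 with it.

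**Figure D2:**
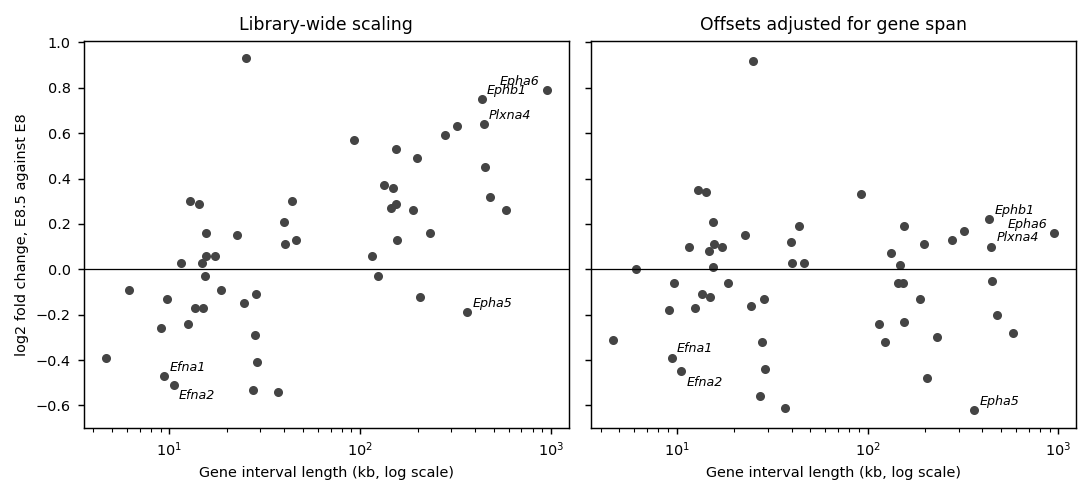
Each point is 1 of 52 guidance genes, with its interval length in kb on a log axis and its log2 fold change of E8.5 against E8 on the vertical axis, with library-wide scaling on the left and with library offsets adjusted for gene span on the right. The slope on the left, where r was 0.62, is gone on the right, where r was -0.02, as the adjustment is built to remove it.

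Between E9.5 and E8.5 decreases were more numerous than increases. Of 52 guidance genes 5 were higher at E9.5, beside 18.4% of all genes, and 15 were lower, beside 18.5%. The higher ones were Epha3, Sema3d, Sema6d, Efnb3 and Epha5. Epha3 and Sema3d had the largest increases, 3.52 ± 0.56 and 2.18 ± 0.42 on the log2 scale. The largest decreases were of Ephb2 (-1.62 ± 0.19), Ephb1 (-1.53 ± 0.34), Nrp2 (-1.12 ± 0.14) and Epha7 (-1.08 ± 0.13). The median over the 52 genes was -0.17, beside -0.028 over all genes. With the adjustment for gene span 9 were higher and 13 lower, beside 19.2% and 15% of all genes, and 17 of the 20 calls were shared. Sema3a, Plxnc1 and Plxna1 lost theirs, with -0.10, 0.01 and -0.03. The genes gained were Sema3c, Plxna2, Epha6 and Ephb4 (higher) and Efna1 (lower). In this comparison the adjustment did not remove a length trend among the guidance genes but brought one. Their r with log interval length was -0.02 without the adjustment and 0.28 with it. The median of the 22 genes of at least 50 kb went from -0.26 to 0.20, and that of the 30 shorter ones from -0.14 to -0.15. In a fit of these stages alone Sema6d, Sema3g, Plxna1, Plxna3 and Plxnc1 lost their calls, with edgeR adjusted p of 0.0947 to 0.162.

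Between E14 and E9.5 more genes were called, 19 higher at E14, beside 25.4% of all genes, and 13 lower, beside 24.6%. Among genes reaching a mean of 1 CPM, the 6 with the largest changes were Sema3d, Sema5a, Epha3, Sema7a and Sema3b, all higher at E14, and Ephb2, lower. The median was 0.17, beside 0.015 over all genes. Epha8 and Epha10 had the largest negative fold changes of the 13, -2.95 ± 0.66 and -2.46 ± 0.38, at levels of at most 1.15 CPM in any library. Over the whole span 21 were higher at E14 than at E8, beside 31.5% of all genes, and 19 were lower, beside 29.2%. Epha3 and Ephb2 marked the extremes, at 6.5 ± 0.63 and -3.8 ± 0.21. Of the 52 genes 13 were called in none of the 3 neighbouring comparisons, beside 33.6% of all genes. Epha3, Sema3d and Sema6d were higher at both E9.5 and E14 than at the stage before, a pattern of 5.77% of all genes. Ephb2, Nrp2, Plxna3, Sema3a and Sema3f were lower at both, as were 4.59% of all genes. Epha7, Plxnc1, Sema3g, Sema4b and Sema6a were lower at E9.5 than at E8.5 and higher at E14 than at E9.5, as were 4.56%. The decrease of Plxnc1 (-0.40) had overlapping libraries and lost its call in 7 of the 12 fits with 1 library left out.

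**Figure D3:**
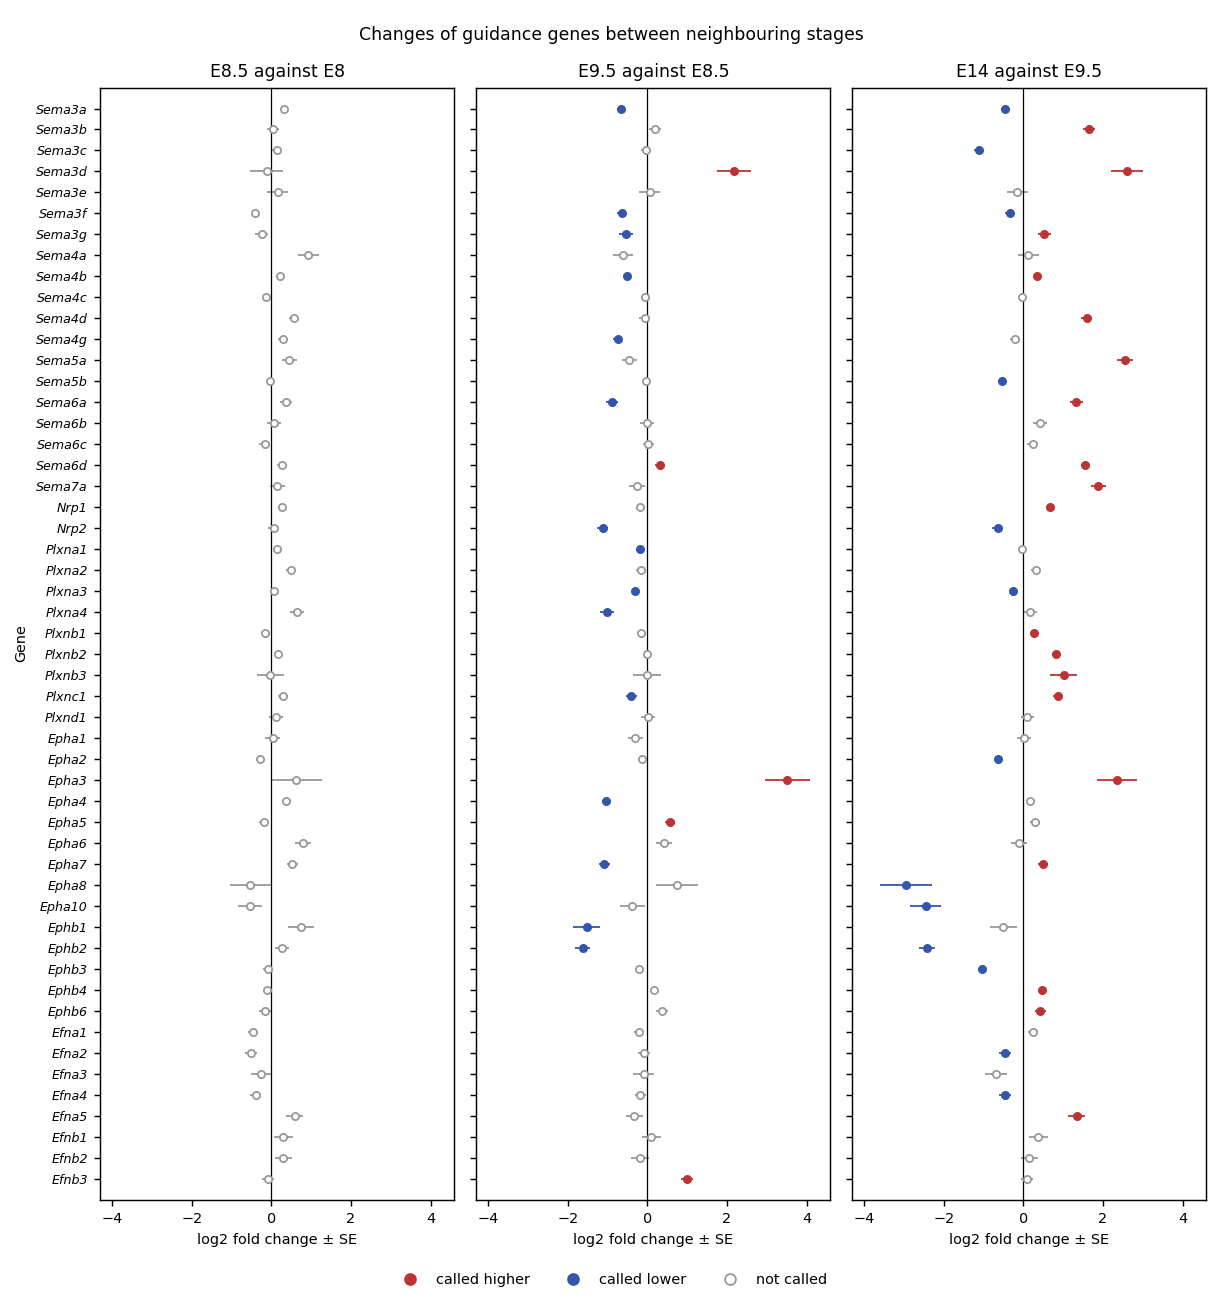
The log2 fold change of each of 52 guidance genes is plotted with its SE in the 3 neighbouring comparisons, and filled points mark genes called at an edgeR adjusted p under 0.05 (red higher, blue lower). The left panel has no filled point, the middle one 5 red and 15 blue, and the right one 19 red and 13 blue.

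Promoter windows are shown for the genes at the extremes, Epha3 and Sema3d with the largest increases and Ephb2 and Nrp2 with large decreases, and for Sema3a, the neighbour of Sema3d on chromosome 5 that moved the opposite way. Each is the RefSeq window from 250 bases before to 50 after a start site (GRCm38.p6), read 5′ to 3′ on the strand of the gene, with matches to the E-box CANNTG in capitals. They lie at chr16:63864126-63864425 (minus, Epha3), chr5:12382916-12383215 (plus, Sema3d), chr5:13396534-13396833 (plus, Sema3a, inside its counted interval), chr4:136835963-136836262 (minus, Ephb2) and chr1:62703067-62703366 (plus, Nrp2).
Epha3: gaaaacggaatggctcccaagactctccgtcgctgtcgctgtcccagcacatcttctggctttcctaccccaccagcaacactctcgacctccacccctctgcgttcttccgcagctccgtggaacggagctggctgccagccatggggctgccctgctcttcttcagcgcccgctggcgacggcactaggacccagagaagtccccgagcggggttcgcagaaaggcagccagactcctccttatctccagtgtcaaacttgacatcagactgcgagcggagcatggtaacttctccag
Sema3d: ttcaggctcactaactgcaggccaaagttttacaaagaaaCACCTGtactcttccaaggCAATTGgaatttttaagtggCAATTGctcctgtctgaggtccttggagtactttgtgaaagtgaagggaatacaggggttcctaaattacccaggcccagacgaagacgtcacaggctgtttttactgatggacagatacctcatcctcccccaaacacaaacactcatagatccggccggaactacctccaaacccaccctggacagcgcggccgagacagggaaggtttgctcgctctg
Sema3a: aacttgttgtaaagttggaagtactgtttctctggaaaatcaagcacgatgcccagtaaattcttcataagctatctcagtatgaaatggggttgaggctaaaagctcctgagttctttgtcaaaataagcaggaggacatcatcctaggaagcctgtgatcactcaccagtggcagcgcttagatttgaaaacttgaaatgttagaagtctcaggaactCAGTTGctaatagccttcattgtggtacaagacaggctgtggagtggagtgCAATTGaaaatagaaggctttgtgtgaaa
Ephb2: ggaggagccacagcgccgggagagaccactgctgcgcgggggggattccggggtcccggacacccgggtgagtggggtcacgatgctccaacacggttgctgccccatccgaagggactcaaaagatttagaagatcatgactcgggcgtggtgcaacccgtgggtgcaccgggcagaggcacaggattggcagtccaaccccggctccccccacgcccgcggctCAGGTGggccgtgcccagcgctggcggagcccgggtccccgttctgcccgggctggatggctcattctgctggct
Nrp2: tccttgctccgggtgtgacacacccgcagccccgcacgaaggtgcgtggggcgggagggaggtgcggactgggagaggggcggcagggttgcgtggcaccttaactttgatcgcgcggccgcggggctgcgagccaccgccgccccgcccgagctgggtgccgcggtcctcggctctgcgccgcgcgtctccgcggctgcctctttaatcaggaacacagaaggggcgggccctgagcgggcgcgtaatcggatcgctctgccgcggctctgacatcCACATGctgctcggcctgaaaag
The Sema3d window held 3 matches to CANNTG, the Sema3a window 2, the Ephb2 and Nrp2 windows 1 each, and the Epha3 window none. CpG dinucleotides numbered 18 in the Epha3 window, 8 in that of Sema3d, 2 in that of Sema3a, 24 in that of Ephb2 and 37 in that of Nrp2. Windows matched 47 of the 53 guidance genes, 61 in all. Of these 50.8% held CANNTG (its own reverse complement), beside 72.3% of all 32851 windows, and 75.4% held the GC box GGGCGG on either strand, beside 35.7%. No guidance window had an E-box sharing letters with a GC box. The median window of the guidance genes had 20 CpG and 64.0% G and C, beside 7 CpG and 52.7% over all windows. These matches describe letters and not sites in use.

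Among the class 3 semaphorins, the secreted ligands, Sema3d was the one that gained most. This gene, needed in mice for the pulmonary veins to join the left atrium (GRCm38, chromosome 5, 12383385 to 12588948, plus strand), had 3.72, 3 and 3.19 CPM at E8, 2.24, 3.15 and 3.76 at E8.5, 4.99, 14.4 and 22.1 at E9.5 and 85.9, 87.3 and 78.6 at E14. The E14 libraries stood far above all others, and those at E9.5 were spread widely, all above E8.5. Sema3d was 4.54-fold higher at E9.5 than at E8.5 (2.18 ± 0.42, edgeR adjusted p = 0.00273), 6.06-fold higher at E14 than at E9.5 (2.60 ± 0.41, 0.000329) and 25.4-fold higher at E14 than at E8 (4.67 ± 0.45, 6.04e-06). Leaving out 1 library at a time gave 1.67 to 2.58 for E9.5 against E8.5.

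Sema3c, the ligand that draws neural crest cells into the outflow tract, went the opposite way. It had 62.2, 56.0 and 58.0 CPM at E8, 68.8, 71.6 and 51.8 at E8.5, 62.0, 65.8 and 59.5 at E9.5 and 29.3, 28.5 and 28.4 at E14. The earlier stages overlapped, and every E14 library was below all of them. The E14 level was 2.17-fold lower than that at E9.5 (-1.12 ± 0.11, edgeR adjusted p = 4.84e-06). E9.5 and E8.5 differed by -0.04 ± 0.11 (edgeR adjusted p = 0.811), a value that turned to 0.38 and was called (0.0046) with the adjustment for gene span.

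Sema3e, which binds Plxnd1 without a neuropilin and shapes vessels, had 5.27, 4.63 and 5.38 CPM at E8, 4.20, 8.59 and 4.32 at E8.5, 4.86, 5.61 and 7.29 at E9.5 and 6.19, 5.38 and 4.51 at E14. All stages overlapped, with a difference of 0.07 ± 0.26 between E14 and E8 (edgeR adjusted p = 0.827). Sema3a, a repellent of axons that also patterns the sympathetic nerves of the mouse heart, had a mean of 91.1 ± 7.52 CPM in E8 libraries, of 114 ± 19.5 CPM in E8.5 libraries, of 72.2 ± 4.26 CPM in E9.5 libraries and of 52.8 ± 2.51 CPM in E14 libraries (SD, n = 3 each). It was lower at E9.5 than at E8.5 (-0.66 ± 0.11), which the span adjustment took to -0.10, and lower at E14 than at E9.5 (-0.45 ± 0.11, and -1.06 with it). Sema3f, a ligand of Nrp2, averaged 15.8 ± 0.83 CPM in E8 libraries, 11.9 ± 1.59 CPM in E8.5 libraries, 7.62 ± 0.755 CPM in E9.5 libraries and 6.04 ± 0.218 CPM in E14 libraries (SD, n = 3 each). Its decrease was called at E9.5 against E8.5 (-0.65 ± 0.11) and at E14 against E9.5 (-0.34 ± 0.11), the second lost without E9.5 replicate 3 or E14 replicate 3.

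Sema3b, a close relative of Sema3f, had 6.78, 6.79 and 7.09 CPM at E14, against 1.92, 2.05 and 2.66 CPM at E9.5. The E14 libraries lay clear above all 9 earlier ones, of which the highest had 2.66 CPM (1.64 ± 0.15, edgeR adjusted p = 4.11e-06). Sema3g, which endothelial cells express, had its lowest mean at E9.5, 3.53 ± 0.599 CPM, beside 5.12 ± 1.11 at E8.5 and 5.08 ± 0.503 at E14. Both of its calls (-0.54 ± 0.17 and 0.53 ± 0.17) were lost when some single libraries were left out, with edgeR adjusted p up to 0.105. Among these was E8.5 replicate 3, without which the earlier difference was -0.32 (0.0971).

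Several of these genes are neighbours. Sema3d, Sema3a and Sema3e lie in a row on the plus strand of chromosome 5, 536 kb and 423 kb apart, and over E14 against E8 had 4.67, -0.79 and 0.07 on the log2 scale. Sema3b and Sema3f lie 72.3 kb apart on the minus strand of chromosome 9, with 1.87 ± 0.15 and -1.39 ± 0.11.

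The other semaphorins, of classes 4 to 7, are mostly bound to the membrane. Of 12 tested, 6 were higher at E14 than at E9.5 (Sema4b, Sema4d, Sema5a, Sema6a, Sema6d and Sema7a), beside 25.4% of all genes, 1 was lower (Sema5b), beside 24.6%, and 5 were not called. Sema5a, a transmembrane ligand with thrombospondin repeats, had 82.0, 104 and 108 CPM at E14, against 13.7, 15.4 and 20.6 CPM at E9.5. At E8.5 it had 16.8, 27.8 and 24.1 CPM and at E8 18.8, 15.8 and 15.7 CPM, so that the E14 libraries exceeded every other. The E14 level was 5.91-fold that at E9.5 (2.56 ± 0.20, edgeR adjusted p = 1.4e-06), and 1.96 on the log2 scale with the span adjustment. Its paralog Sema5b fell to 7.82, 6.76 and 6.33 CPM at E14, against 10.5, 9.98 and 9.89 CPM at E9.5 (-0.54 ± 0.09, edgeR adjusted p = 0.000246).

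Sema6d, a ligand of Plxna1 that acts in the forming heart tube of the chick, had 34.5, 30.2 and 31.2 CPM at E8, 37.9, 43.6 and 33.2 at E8.5, 42.8, 52.4 and 46.7 at E9.5 and 127, 147 and 145 at E14. Means stood in the order of the stages, with the E8.5 libraries overlapping both neighbours and the E14 libraries above all. It was 2.96-fold higher at E14 than at E9.5 (1.56 ± 0.11, edgeR adjusted p = 4.92e-07). The step at E9.5 against E8.5 (0.31 ± 0.11, 0.0462) was lost in 7 of the 12 fits with 1 library left out, among them the one without E8.5 replicate 3 (0.24, 0.0671). With the span adjustment that step was 0.87 (edgeR adjusted p = 0.000117) and the one at E14 against E9.5 was 0.91 (1.34e-05). Sema6a, a ligand of Plxna2 and Plxna4, averaged 17.3 ± 1.32 CPM at E9.5, against 32.2 ± 7.56 at E8.5 (-0.89 ± 0.16), and 43.4 ± 5.74 at E14, against 17.3 ± 1.32 at E9.5 (1.33 ± 0.17).

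Sema7a, a lipid-anchored semaphorin whose receptors are Plxnc1 and integrin beta1, had 6.47, 7.80 and 6.60 CPM at E14, against 2.36, 1.85 and 1.48 CPM at E9.5. No earlier library reached the E14 values (1.88 ± 0.19, edgeR adjusted p = 6.97e-06). Sema4d, the ligand of Plxnb1, had 13.7, 17.2 and 13.8 CPM at E14, against 3.95, 3.26 and 3.33 CPM at E8. The E8.5 and E9.5 libraries lay between these groups, at 4.75 to 6.03 CPM, and the difference of E14 and E8 was 4.25-fold (2.09 ± 0.13, edgeR adjusted p = 9.33e-08). Sema4g fell at E9.5 (-0.75 ± 0.12 against E8.5), and Sema4c was lower at E14 than at E8 by a small amount (-0.24 ± 0.08, edgeR adjusted p = 0.0197), a call lost without E8 replicate 2 or E14 replicate 3.

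**Figure D4:**
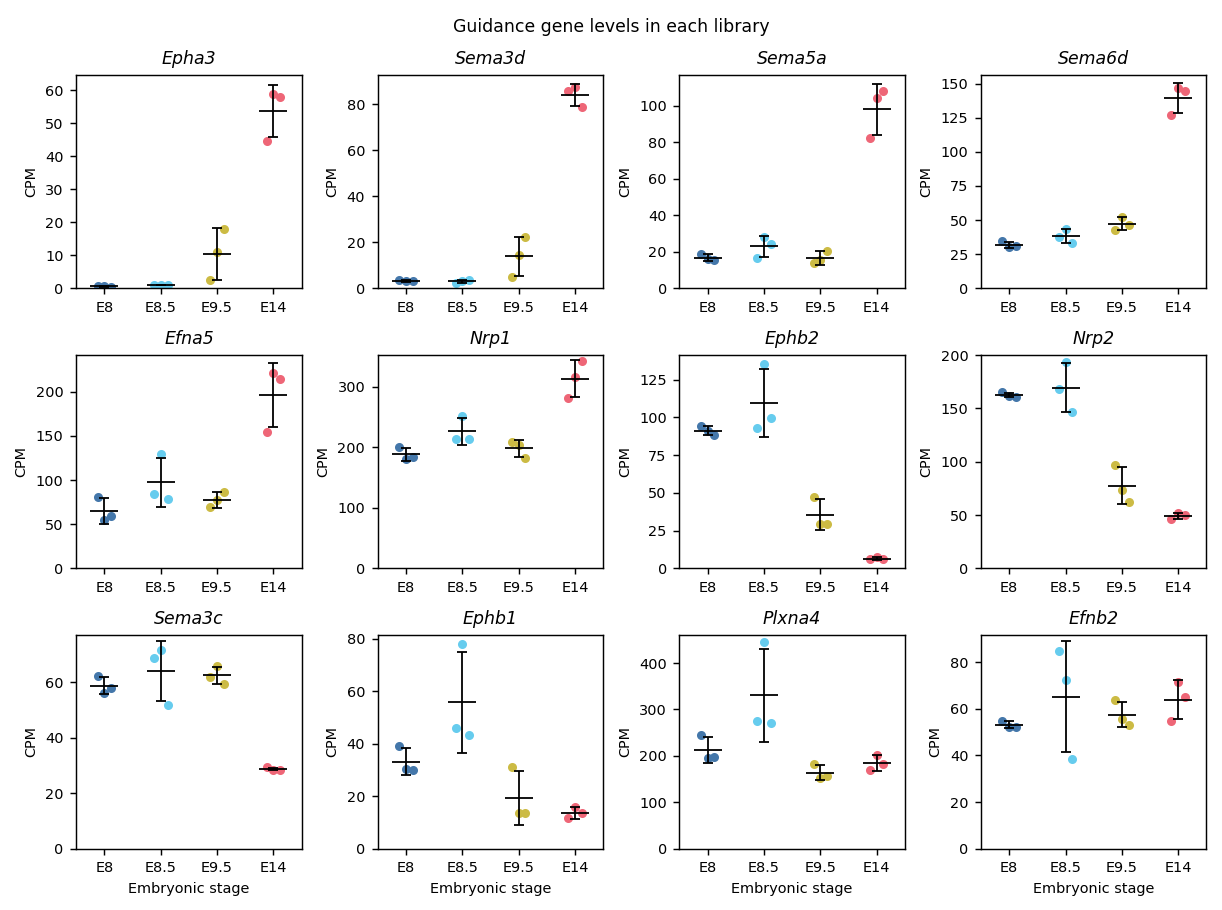
CPM of 12 guidance genes in each library (points) with the stage mean and SD (bars, n = 3) at E8, E8.5, E9.5 and E14. Epha3, Sema3d, Sema5a and Sema6d peak at E14, Ephb2, Nrp2 and Sema3c are lowest there, and Efnb2 overlaps between stages.

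The neuropilins, which bind class 3 semaphorins and vascular endothelial growth factors, parted. Nrp2, the receptor of Sema3f (GRCm38, chromosome 1, 62703285 to 62818695, plus strand), had 165, 162 and 161 CPM at E8, 168, 193 and 147 at E8.5, 97.1, 73.3 and 62.7 at E9.5 and 46.5, 52.1 and 49.6 at E14. E8 and E8.5 overlapped, and each later stage lay below the one before without overlap. It was lower at E9.5 than at E8.5 (-1.12 ± 0.14, edgeR adjusted p = 0.000232) and lower at E14 than at E9.5 (-0.65 ± 0.14, 0.00237). Nrp1, which vessels and cardiac neural crest need, had 281, 316 and 343 CPM at E14, against 209, 203 and 182 CPM at E9.5. With 213, 252 and 213 CPM at E8.5 and 200, 180 and 184 CPM at E8, no earlier library reached those of E14, 1.58-fold above E9.5 (0.66 ± 0.10, edgeR adjusted p = 0.000188). The sum of 8 endothelium and endocardium markers was also higher at E14, with 733 to 770 CPM, against 453 to 509 CPM at E9.5. Of the 8 markers 6 were called higher and 0 lower, beside 25.4% and 24.6% of all genes. The part of these cells in the levels of Nrp1, and of Ephb4 below, was not tested.

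Of the 9 plexins 4 were higher at E14 than at E9.5 (Plxnb1, Plxnb2, Plxnb3 and Plxnc1), 1 was lower (Plxna3) and 4 were not called, beside 25.4% and 24.6% of all genes. At E9.5 against E8.5 none was higher and 4 were lower (Plxna1, Plxna3, Plxna4 and Plxnc1), beside 18.4% and 18.5%. Plxna4, a receptor of Sema3a and class 6 semaphorins, had 183, 152 and 156 CPM at E9.5, against 275, 446 and 271 CPM at E8.5. All E9.5 libraries were below those of E8.5, of which replicate 2 was far above the others (-1.01 ± 0.18, edgeR adjusted p = 0.00145). At E8 it had 244, 196 and 198 CPM and at E14 169, 202 and 183 CPM, with 0.17 ± 0.18 for E14 against E9.5 (edgeR adjusted p = 0.447), which the span adjustment turned to -0.41 (0.00131). Plxna4 thus was lower at E9.5 than at E8.5 on both scales, and the sign of its later difference depended on the scaling.

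Plxnd1, the endothelial receptor of Sema3e that outflow tract septation needs in mice, had 98.8, 100 and 97.9 CPM at E8, 142, 101 and 78.9 at E8.5, 124, 104 and 98.7 at E9.5 and 114, 128 and 108 at E14. The stages overlapped apart from E14 and E8, and no comparison was called (0.24 ± 0.17 for E14 against E8, edgeR adjusted p = 0.243). Plxna2, a receptor that cardiac neural crest cells carry, had 39.4, 30.4 and 30.7 CPM at E8, 42.9, 52.8 and 44.9 at E8.5, 43.7, 39.3 and 42.5 at E9.5 and 44.5, 56.2 and 54.7 at E14. The E8 libraries lay below those of E8.5 and of E14, 1 of them level with the lowest of E9.5, and E14 exceeded E8 by 0.63 ± 0.12 (edgeR adjusted p = 0.000817). Its difference between E9.5 and E8.5 was -0.16 ± 0.12, and 0.28 with the span adjustment.

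Plxna1, the receptor of Sema6d, had 48.2, 49.6 and 49.0 CPM at E9.5, against 55.5, 55.7 and 56.2 CPM at E8.5, a small difference without overlap. With -0.19 ± 0.06 (edgeR adjusted p = 0.023) it was called, and 5 of 12 fits that left out 1 library lost it. At E8 it had 50.5, 51.8 and 50.3 CPM and at E14 45.6, 49.9 and 48.1 CPM.

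The B plexins, receptors of class 4 semaphorins, were each called higher at E14 than at E9.5. Plxnb2, a receptor of Sema4c, had 102 ± 2.65 CPM at E14, against 57.3 ± 4.94 at E9.5 (SD, n = 3 each), a difference of 0.83 ± 0.09 (edgeR adjusted p = 9.46e-06). Plxnb1, the receptor of Sema4d, averaged 35.8 CPM at E8 and 32.3 CPM at E8.5, so that its E14 level was near that at E8. It had 34.8 ± 0.682 CPM at E14, against 29.1 ± 0.442 at E9.5 (0.26 ± 0.08). That call was lost in 5 fits that left out 1 library. Plxnb3, a receptor of Sema5a, had at most 0.551 CPM in any library, and its E14 call (1.01 ± 0.35) was lost in 6 such fits. Plxnc1, the receptor of Sema7a, had 41.0 ± 2.41 CPM at E14, against 22.4 ± 2.73 at E9.5 (0.87 ± 0.13, edgeR adjusted p = 0.000193).

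The ligands and receptors paired above, and those of the Eph system below, can be set side by side at E14 against E9.5. Sema7a and Plxnc1 were both higher, as were Sema4d and Plxnb1, and Sema5a and Plxnb3. Sema3f and Nrp2 were both lower, and Sema3c was lower with Nrp2 while Nrp1 was higher. Of these genes Plxnb1, Plxnb3 and Sema3f lost their calls in some fits with 1 library left out. Sema3a was lower while Plxna4 was not called. Sema6d was higher while Plxna1 was not called, and Sema6a was higher while neither Plxna2 nor Plxna4 was. Plxnb2 was higher while Sema4c was not called, and neither Sema3e nor Plxnd1 was called. Epha2 was lower and Ephb4 higher, while their ligands Efna1 and Efnb2 were not called, and neither Efnb3 nor Epha4 was.

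Epha3 had the widest range of all the guidance genes. This EphA receptor, without which endocardial cushions are malformed in mice (GRCm38, chromosome 16, 63543538 to 63864158, minus strand), had 0.678, 0.609 and 0.495 CPM at E8, 0.96, 0.934 and 0.85 at E8.5, 2.4, 11 and 18 at E9.5 and 44.5, 58.7 and 57.9 at E14. No stage overlapped another, and the E9.5 libraries differed 7.5-fold among themselves. At E8 these levels stood on 62 to 71 counts per library, at E14 on 2345 to 5434. Epha3 was 11.5-fold higher at E9.5 than at E8.5 (3.52 ± 0.56, edgeR adjusted p = 0.00109), 5.12-fold higher at E14 than at E9.5 (2.36 ± 0.5, 0.00241) and 90.7-fold higher at E14 than at E8 (6.5 ± 0.63, 6.19e-06). Leaving out 1 library at a time gave 2.88 to 3.98 for E9.5 against E8.5.

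The markers of the epicardium, the outer layer that spreads over the heart, moved with Epha3 and Sema3d, as did those of fibroblasts and mesenchyme. The sum of 6 epicardium markers (Wt1, Tbx18, Tcf21, Upk3b, Upk1b and Aldh1a2) ran from 10.5 to 10.8 CPM in E8 libraries and from 7.67 to 15.3 CPM in E8.5 libraries. It was 35.7, 83.6 and 115 CPM in the E9.5 libraries and 164 to 180 CPM in those of E14. Within E9.5 replicate 1 was lowest and replicate 3 highest for these markers, for Epha3 and for Sema3d. All 6 epicardium markers were called higher at E9.5 than at E8.5, beside 18.4% of all genes. At E14 against E9.5 it was 2 of them, beside 25.4%, and none was at 0. Fibroblast and mesenchyme markers also had their lowest E9.5 sum in replicate 1, at 219 CPM, beside 261 and 366, and reached 1789 to 1844 at E14. Of these 6 markers 4 were called higher at E9.5 than at E8.5 and 5 at E14 than at E9.5. The order of the E9.5 replicates was not particular to these lists. It was found in 8 of the 13 marker lists, among them neural crest and glia (35, 48.5 and 51.7 CPM at E9.5, and 106 to 124 CPM at E14), visceral endoderm and liver (9.91, 74.5 and 131 CPM at E9.5) and erythroid cells (2995, 5789 and 7677 CPM at E9.5). The part of any of these cell types in the levels of Epha3 and Sema3d was not tested.

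**Figure D5:**
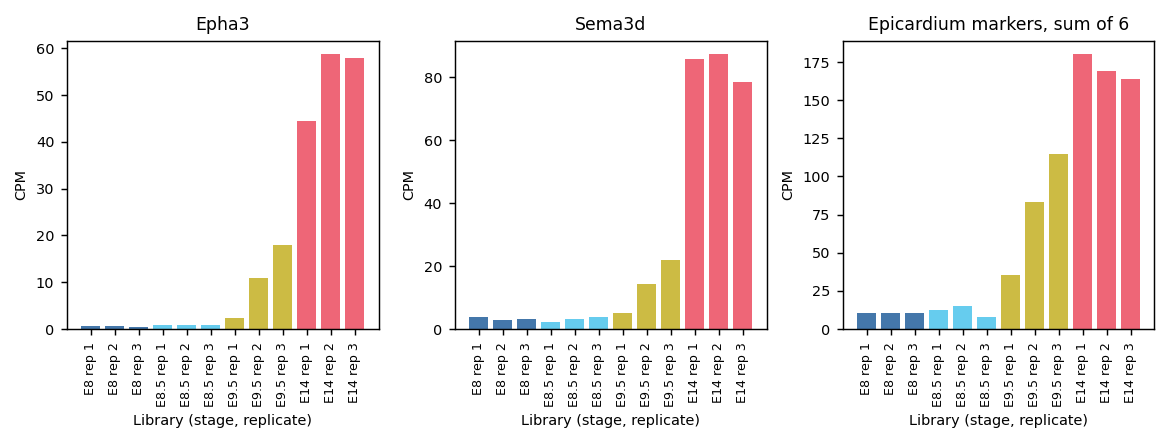
Bars give the CPM of Epha3, of Sema3d and the summed CPM of 6 epicardium markers in each of the 12 libraries. In all 3 panels the E9.5 bars stand in the order of replicates 1, 2 and 3, below the E14 bars and above those of E8 and E8.5.

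Of the other EphA receptors at E9.5 against E8.5, Epha5 was higher (0.57 ± 0.13) and Epha4 and Epha7 were lower (-1.04 ± 0.10 and -1.08 ± 0.13). Epha4, which binds both ephrin classes, had 49.5 ± 1.89 CPM at E9.5, against 102 ± 16.6 at E8.5 (SD, n = 3 each). Epha7 had 108, 95.6 and 82.0 CPM at E9.5, against 180, 231 and 194 CPM at E8.5, without overlap. At E14 Epha7 had 124, 144 and 132 CPM, again above E9.5 (0.49 ± 0.13, edgeR adjusted p = 0.00706), though with the span adjustment that difference was 0.16 (0.147). Epha2, a receptor of Efna1, had 8.88, 9.96 and 8.10 CPM at E14, against 13.8, 14.4 and 14.1 CPM at E9.5. It had 13.7, 17.0 and 15.4 CPM at E8.5 and 18.2, 19.2 and 19.0 CPM at E8, so that the E14 libraries were below all others (-0.65 ± 0.09 against E9.5, edgeR adjusted p = 0.000125). Epha8, at 0.013 to 0.502 CPM, and Epha10, at 0.0521 to 1.15 CPM, were low throughout and lower still at E14.

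Ephb2 fell most. This EphB receptor, which acts with Ephb3 in vessel formation (GRCm38, chromosome 4, 136647539 to 136835988, minus strand), had 94.4, 90.8 and 88.6 CPM at E8, 92.9, 135 and 99.8 at E8.5, 47.3, 29.6 and 29.5 at E9.5 and 6.04, 7.38 and 6.25 at E14. E8 and E8.5 overlapped, E9.5 lay below both and E14 below E9.5. It was 3.08-fold lower at E9.5 than at E8.5 (-1.62 ± 0.19, edgeR adjusted p = 0.000154), 5.39-fold lower at E14 than in the E9.5 libraries (-2.43 ± 0.2, 1.72e-06) and 13.9-fold lower at E14 than at E8 (-3.8 ± 0.21, 4.4e-08). Its neighbour Epha8, 93.4 kb away on the same strand, was also lower at E14 than at E8 (-2.73 ± 0.65).

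Ephb1, known for steering axons of the retina, had 31.1, 13.4 and 13.4 CPM at E9.5, against 45.9, 78.1 and 43.2 CPM at E8.5. The E9.5 libraries were below those of E8.5, replicate 1 much nearer to them than the others (-1.53 ± 0.34, edgeR adjusted p = 0.00547). It had 39.1, 30.4 and 30.0 CPM at E8 and 11.5, 16 and 13.5 at E14. Ephb3 fell to 14.3 ± 0.687 CPM at E14, against 29.5 ± 3.76 at E9.5 (-1.04 ± 0.11). Ephb4, the receptor of veins, had 83.0, 77.6 and 76.0 CPM at E14, against 57.8, 56.1 and 55.9 CPM at E9.5. With 55.0, 44.7 and 50.9 CPM at E8.5 and 52.1, 55.5 and 54.5 CPM at E8, every earlier library lay below those of E14 (0.48 ± 0.08 against E9.5, edgeR adjusted p = 0.000323). Of the 5 EphB receptors, then, over E14 against E8, Ephb1, Ephb2 and Ephb3 fell, beside 29.2% of all genes. Ephb4 and Ephb6, which lacks kinase activity, rose, beside 31.5%.

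Markers of the neural tube, foregut, somites, neural crest and neurons went in both directions. The neural tube list of 8 genes summed to 1.47 to 1.61 CPM in E14 libraries, against 4.83 to 5.15 CPM in those of E8, and 3 of the 6 genes tested were lower. The foregut endoderm and epithelium list summed to 7.07 to 8.63 CPM in E9.5 libraries, against 17.3 to 52.1 CPM in those of E8.5. Here 6 of 6 genes were lower, beside 18.5% of all genes. The somite and skeletal muscle list summed to 9.57 to 10.7 CPM in E14 libraries, against 2.54 to 2.85 CPM in those of E8, with 2 of 4 genes tested higher and 2 lower, and the neural crest and glia list to 106 to 124 CPM, against 22.6 to 24.2 CPM, with 1 of 5 higher. Of 7 neuron markers 3 were higher and 1 lower at E14 than at E8. In that comparison 31.5% of all genes were higher and 29.2% lower. In lists this short such counts do not by themselves show a change in a cell type. The part of these cell types in the levels of Ephb2, Nrp2 and the other genes was not tested.

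Among the ephrins, Efnb2, the arterial ligand of Ephb4, had 54.9, 52.2 and 52.4 CPM at E8, 84.9, 72.5 and 38.5 at E8.5, 63.7, 55.6 and 53.3 at E9.5 and 54.9, 71.5 and 65.2 at E14. E8.5 replicate 3 was the lowest of all 12 libraries and the other E8.5 libraries were the highest. No comparison was called with all libraries (E9.5 against E8.5, -0.18 ± 0.22, edgeR adjusted p = 0.544). Without E8.5 replicate 3, E8.5 was higher than E8 (0.53, edgeR adjusted p = 0.00502) and E9.5 was lower than E8.5 (-0.42, 0.00925).

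Efnb1, an X-linked ligand of EphB receptors, had 22.3, 19.3 and 20.4 CPM at E14, against 10.9, 13 and 12.5 CPM at E8. All E14 libraries were above those of E8 (0.77 ± 0.24, edgeR adjusted p = 0.0171), a call lost without E8 replicate 1 or E14 replicate 1. At E8.5 it had 12.3, 9.58 and 22.8 CPM, replicate 3 being the highest of all libraries, and at E9.5 16.2, 15.7 and 16.2 CPM. Without E8.5 replicate 3, E9.5 was higher than E8.5 (0.58, edgeR adjusted p = 0.00172). Efnb3, a ligand of Epha4 at the midline of the spinal cord, had 29.5, 33.3 and 34.3 CPM at E9.5, against 20.6, 15.1 and 12.7 CPM at E8.5 without overlap. It was 2.01-fold higher at E9.5 (edgeR adjusted p = 0.000509), and E14 differed from E9.5 by 0.09 ± 0.15 on the log2 scale.

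The ephrin-A genes divided by size of change and direction. Efna5 was the 1 that rose, to 155, 221 and 214 CPM at E14, against 69.1, 76.9 and 86.9 CPM at E9.5 (1.34 ± 0.21, edgeR adjusted p = 0.00031). Efna1, Efna2, Efna3 and Efna4 were all lower at E14 than at E8, beside 29.2% of all genes. Their log2 fold changes were -0.43 ± 0.12, -1.06 ± 0.15, -1.04 ± 0.27 and -1.04 ± 0.14. Efna1 had 14.3, 13.7 and 13.7 CPM at E14 and 13.6, 11.6 and 9.86 CPM at E9.5, all below its E8 libraries. Efna1, Efna3 and Efna4 lie next to each other on the minus strand of chromosome 3, with 32.8 kb and 10.4 kb between them, and Efna3 had at most 1.02 CPM.

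Other genes of guidance signalling were counted in the same fit, where 18.4% of all genes were higher and 18.5% lower at E9.5 than at E8.5, and 25.4% higher and 24.6% lower at E14 than at E9.5. Of 24 genes of other guidance families (slits, robos, netrins and their receptors, repulsive guidance molecules and Flrt proteins) 4 were higher and 8 lower at E9.5 than at E8.5, and 11 higher and 6 lower at E14 than at E9.5. At E14 against E9.5 the netrin receptor gene Dcc had the largest increase of these (3.10 ± 0.25, 31.3 CPM at E14 against 3.66 CPM at E9.5) and Ntng2 the largest decrease (-1.93 ± 0.21). Slit2, a ligand of the robo receptors, was the 1 gene of the list called at E8.5 against E8 (0.57 ± 0.11, edgeR adjusted p = 0.044) and reached 295 CPM at E14, against 39.4 CPM at E9.5 (2.90 ± 0.11).

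Of 33 partners and effectors of plexins and neuropilins, 7 were higher and 10 lower at E9.5 than at E8.5, and 11 higher and 7 lower at E14 than at E9.5. The largest changes of the last interval were of the small GTPases Rras, a target of the GTPase-activating domain of plexins (1.47 ± 0.18), and Rnd2 (-1.96 ± 0.10). Of 30 effectors of Eph receptors and ephrins, 2 were higher and 13 lower at E9.5 than at E8.5, and 12 higher and 6 lower at E14 than at E9.5. Here Chn2, a chimaerin that turns off Rac, had the largest increase at E14 (1.48 ± 0.13) and Vav2 the largest decrease (-0.99 ± 0.14). The medians of the 3 lists at E9.5 against E8.5 were -0.31, 0.03 and -0.29, beside -0.17 for the guidance genes themselves. At E14 against E9.5 they were 0.38, 0.02 and 0.10, beside 0.17.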

How the data were processed

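Total RNA libraries from 4 stages, 3 each, were analysed. Per the labels' protocols tissue went into TriZol and an Illumina protocol for library construction. STAR 2.5.0 and Cufflinks 2.2.1 are listed in the submitters' processing notes, without a role. The deposited table holds raw whole-number counts per gene interval. The program that counted reads, whether it used strand and which annotation it read were not given in the sources used here. Of its 48709 intervals, 42778 equalled a GENCODE M21 (GRCm38) gene, 46 of the 53 guidance genes among them, and coordinates are those of the table.

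Counts were fitted in R 4.3.3 with edgeR 4.0.16: filterByExpr (minimum count of 10), TMM factors (0.913 to 1.07) and 1 robust quasi-likelihood model with a mean per stage over all 12 libraries, with a common dispersion of 0.0362. The SE of a fold change was taken as its absolute value over the square root of the F statistic. The procedure was tested on simulated data. Libraries of the same stage were no copies of each other, since pairs had a mean chi-square per gene of 8.41 to 201, and each counted as 1 sample. Alternatives were RLE factors, other filters, a replicate block, offsets adjusted for a smooth trend (lowess, span 0.3) on interval length, small structural RNAs and globins left out, fits to 2 stages only, DESeq2 1.42.0 and each library left out.

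Values of each library are printed for the 6 called genes with the largest changes per comparison. These were taken among genes whose libraries do not overlap and whose higher mean is at least 1 CPM. The same was done for 17 genes with known roles in heart or vessel formation. Outside these rules, values are also printed for Sema5b, Efna5 and Efnb3, and at other stages for genes chosen by size of change, such as Epha7. The members and lists were chosen with earlier results of these data known. Python 3.11.15 with pandas 2.3.3 and matplotlib 3.10.9 made tables and figures.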

Additional observations from a re-analysis of the deposited data

How the results depend on the processing

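The counts between E8.5 and E8, 0 with edgeR, depended on the settings. There were 4 higher and 2 lower among genes with a mean of at least 1 CPM, 3 higher and 2 lower with small structural RNAs and globins left out, and 8 higher and 4 lower with DESeq2. Leaving out 1 library at a time gave 0 to 13 higher and 0 to 7 lower, all of them without E8.5 replicate 3. With the adjustment for gene span 9 were higher at E9.5 than at E8.5, and several values changed sign. Among these, at E9.5 against E8.5, were Plxna2 (0.28), Sema3c (0.38), Plxnc1 (0.01), Nrp1 (from -0.19 to 0.20) and Efna5 (from -0.33 to 0.19). Others were Plxna4 (-0.41) at E14 against E9.5, and Sema3a (from 0.32 to -0.20) and Sema6d (from 0.26 to -0.28) at E8.5 against E8. At E9.5 against E8.5 the adjustment took r with log interval length from -0.02 to 0.28 over the guidance genes. The cause of the sign changes was not tested.

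Other counts stayed within 1.5 times under every alternative run. With 1 library left out they were 4 to 6 higher and 12 to 16 lower at E9.5 against E8.5, 15 to 21 and 10 to 14 at E14 against E9.5, and 18 to 21 and 18 to 20 at E14 against E8, and 40 to 47 genes differed over the 4 stages. Of the called genes, 16 of 20, 24 of 32 and 36 of 40 kept their call in every such fit. Replicate numbers did not pair the libraries, with correlations of -0.08 to 0.13 between deviations of same-numbered libraries over 18 pairs. With the replicate number as a block 0 genes were called at E8.5 against E8, 5 higher and 15 lower at E9.5 against E8.5, 18 and 13 at E14 against E9.5, 20 and 19 at E14 against E8, and 43 over the 4 stages. Low counts limit Sema4f, Epha8, Epha10, Plxnb3, Efna3 and Sema4a, and the spread of E8.5 limits both comparisons that use it.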
